A study of Mus musculus with 12 samples.

Results

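Interferon-stimulated genes were followed in CD8 T cell RNA-seq libraries of WT and TCF-1 cKO mice, pre-transplant and at day 7 post-transplant. The members were 46 genes taken by symbol from a list, out of 35855 genes with annotated transcripts in the deposited files, and all 46 were found and tested in each comparison. They fall into 12 interferon-inducible GTPases, which are the guanylate-binding proteins Gbp2, Gbp3, Gbp4, Gbp5, Gbp6 and Gbp7 and the immunity-related GTPases Igtp, Irgm1, Irgm2, Iigp1, Tgtp1 and Tgtp2, and 34 other members. The rule itself uses no measured value.

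Interferons are cytokines that act through cell surface receptors and JAK kinases. Type I interferons mainly activate ISGF3, a complex that contains STAT2 and IRF9 and binds interferon-stimulated response elements (ISRE), whereas interferon-γ acts mainly through gamma-activated sites (GAS) and induces IRF1. The genes switched on include sensors of foreign nucleic acid, proteins that block viral RNA and its translation, and the GBP and IRG GTPases, which attack the vacuoles of intracellular parasites and bacteria and are known above all as targets of interferon-γ. Activated CD8 T cells both make interferon-γ and respond to it.

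There were 4 groups of 3 libraries, all from spleen and of C57BL/6 background. TCF-1 cKO donors carried floxed TCF-1 (gene Tcf7) and a Cre driven by the CD4 promoter, so that deletion is limited to cells that have used that promoter, while WT donors were B6-Ly5.1 or C57Bl/6J mice without Cre and Cre-only controls are not among these libraries. Pre-transplant cells were sorted from donors, and day 7 cells were donor-type CD8 T cells sorted from lethally irradiated BALB/c recipients that had received 1000000 donor T cells and T cell-depleted WT bone marrow, which is donor-type as well. The labels number the libraries within a group without saying which come from separate animals, so that p-values measure the spread between these libraries, which may in part be technical. Library totals were 4520270 to 9577076 estimated counts in TCF-1 cKO pre-transplant, 18978963 to 28884454 in WT pre-transplant and 18184814 to 32657005 at day 7. Levels are given as counts per 1000000 (CPM) after scaling by the trimmed mean of M values (normalized CPM), on which 3 counts lie between 0.0804 and 0.290.

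The targeted gene did not separate the genotypes in every library. Tcf7 was at 117, 76.1 and 166 normalized CPM in WT and 26.3, 34.3 and 62.9 in TCF-1 cKO libraries pre-transplant, and at 26.9, 26.5 and 10.7 in WT and 14.6, 13.7 and 14.1 in TCF-1 cKO libraries at day 7. The library labelled WT replicate 3 at day 7 therefore lay below all TCF-1 cKO libraries of that day. Results are also given without it. With all libraries, the edgeR adjusted p for Tcf7 was 0.308 at day 7 and 0.223 pre-transplant. In the day 7 fits that left out 1 library, the adjusted p for Tcf7 ranged from 0.0747 to 0.529. The day 7 log2 fold change of Tcf7 was -0.91, and 0.28 under an offset for GC content and length (described below). Which exons are deleted is not given in the sources used here, so that remaining Tcf7 reads do not check the deletion fully. One label of TCF-1 cKO replicate 2 at day 7 names CD4 T cells, but its Cd8a, Cd8b1 and Cd4 were at 621.8, 1492 and 2.04 normalized CPM.

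The CD8 T cell label fitted the markers at day 7 better than pre-transplant. Summed over 5 genes, CD8 T cell markers reached 5139 to 6856 normalized CPM in WT and 6212 to 8394 in TCF-1 cKO libraries at day 7, and 7 B cell markers 46.8 to 118 and 41.3 to 64.2. Pre-transplant, the same CD8 T cell markers reached only 819 to 974 in WT and 244 to 397 in TCF-1 cKO libraries, against B cell sums of 4335 to 5313 and 2146 to 4312. None of the markers was at 0 in all libraries of a group, and myeloid (9 markers, 1033 to 3408) and erythroid (6 markers, 2121 to 17118) transcripts were abundant pre-transplant too. Every value pre-transplant, and every change from pre-transplant to day 7, was thus measured in mixed transcripts. In bulk libraries, fewer cells of a type and less RNA per cell cannot be told apart.

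**Figure D1:**
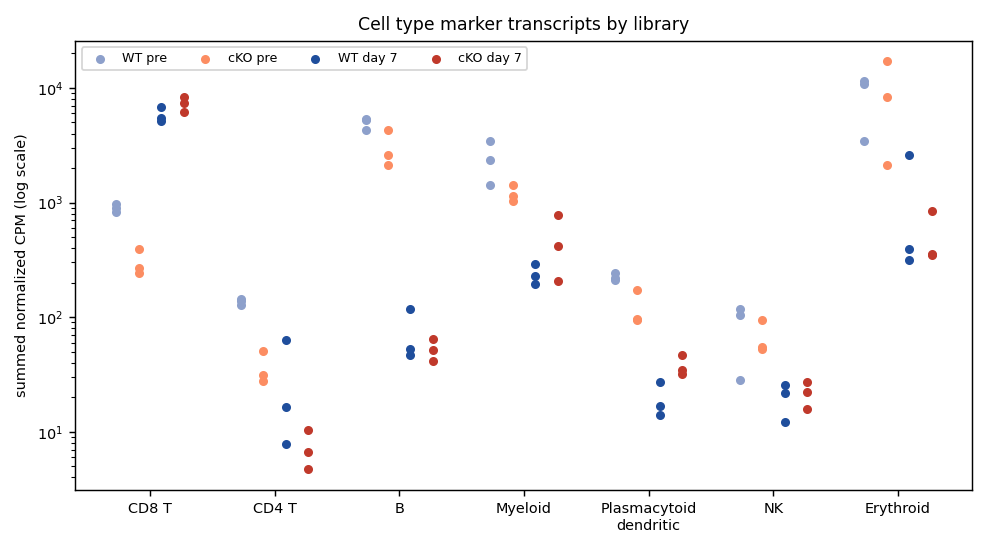
Summed normalized CPM (log axis) of marker lists for CD8 T cells and other cell types in each of the 12 libraries, by genotype and stage. B cell sums exceed CD8 T cell sums in all 6 pre-transplant libraries, and CD8 T cell sums are far above B cell sums in all 6 day 7 libraries.

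Before the levels, promoter stretches of 8 members are shown because they carry the interferon response motifs searched for in members of both classes. RefSeq promoter windows on GRCm38.p6, from 250 bases before to 50 bases after a start, were matched by symbol for 35 of the 46 members. An ISRE was searched as GAAA, any 2 bases and GAAA again, and a GAS as TTC, any 3 bases and GAA, on both strands, in the bases before the start. Sequences run in the direction of transcription, and capitals mark the matches, of which those on the opposite strand read as the reverse complement.
Gbp2, chr3:142620596-142620621, plus strand: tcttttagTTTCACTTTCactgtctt
Gbp7, chr3:142530222-142530300, plus strand: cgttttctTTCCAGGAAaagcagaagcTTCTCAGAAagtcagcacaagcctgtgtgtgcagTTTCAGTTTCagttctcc
Igtp, chr11:58199503-58199539, plus strand: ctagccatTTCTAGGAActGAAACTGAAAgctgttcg
Irgm1, chr11:48871427-48871458, minus strand: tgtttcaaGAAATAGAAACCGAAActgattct
Tgtp2, chr11:49064265-49064301, minus strand: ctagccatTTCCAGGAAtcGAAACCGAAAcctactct
Isg15, chr4:156200867-156200904, minus strand: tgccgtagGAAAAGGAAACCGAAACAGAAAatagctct
Ifit3, chr19:34583365-34583424, plus strand: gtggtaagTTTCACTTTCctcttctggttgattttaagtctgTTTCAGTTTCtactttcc
Rsad2, chr12:26456555-26456580, minus strand: ggtccaacTTTCATTTTCagaaaaca
Gbp2, Irgm1, Isg15, Ifit3 and Rsad2 carry only ISRE matches here, and in Irgm1 and Isg15 these overlap one another. Gbp7, Igtp and Tgtp2 carry both motifs. An ISRE match was found in 9 of 9 GTPases with a window, 11 of 26 other members and 3.46% of the 27025 genes with a promoter window. A GAS match was found in 6 of 9 GTPases, 5 of 26 others and 8.13% of all genes, and both motifs together in 66.7% of GTPases, 7.69% of others and 0.40% of all genes. In Bst2 an ISRE and a GAS match overlap. These matches describe the letters and do not show binding.

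Most GTPase genes are physically grouped. In the GENCODE annotation of GRCm38, Gbp5, Gbp7, Gbp3 and Gbp2 follow one another on chromosome 3 between 142493978 and 142638008, and Gbp4 and Gbp6 lie on chromosome 5 between 105115767 and 105293698. On chromosome 11, Irgm1, Tgtp1 and Tgtp2 lie between 48861968 and 49064206, and Igtp and Irgm2 lie apart from them between 58199556 and 58222782. Iigp1 is on chromosome 18, away from the other GTPase genes among the members. Some reads of GTPase genes cannot be assigned with certainty. Of the 31-base words in its transcripts, Tgtp2 shares 90.5% and Tgtp1 84.4% with other genes, mainly each other, and Gbp6 shares 74.2%, mainly with Gm43302. Igtp (15.9%) and Irgm2 (10.7%) overlap on the same strand. Among the others, Oas1a shares 68.8%, mainly with Oas1g, Ifit3 61.8% with Ifit3b, and Ifi208 34.5%, mainly with Ifi213, so the split between such pairs rests on the estimate made by the authors' software.

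Compared per length within a group, in transcripts per 1000000 (TPM, mean ± SD, n = 3), abundance spanned several orders of magnitude. At day 7 in TCF-1 cKO cells, Ifi27l2a, which encodes a small hydrophobic protein, led at 1613 ± 136 TPM, followed by the nucleic acid sensor gene Zbp1 at 316 ± 9.64 and Ifi35 at 127 ± 83.7. The most abundant GTPase was Igtp at 73.6 ± 9.69, and next were Tgtp2 at 32.9 ± 0.563 and Irgm1 at 31.9 ± 5.10, which did not differ beyond their spread. At the other end were the chemokine gene Cxcl10 at 0.232 ± 0.403, Oasl1 at 0.426 ± 0.151 and Rsad2 at 0.4999 ± 0.316. In WT cells of the same day Ifi27l2a was at 1501 ± 513, Ifi35 at 240.2 ± 20.9, Zbp1 at 169.8 ± 95.6 and Igtp at 56.7 ± 12.7, so that Ifi35 and Zbp1 traded places in the order of means. The WT libraries of Zbp1, at 88.1 to 275 TPM, lay on both sides of those of Ifi35, at 217 to 257.

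Pre-transplant, the question was whether interferon-stimulated genes already differed between the genotypes. None of the 46 members passed the FDR of 0.1 in the quasi-likelihood test of edgeR with p-values adjusted after Benjamini and Hochberg, where 0.0373% of 18757 genes did. An unadjusted p under 0.05 was found for 6 members, beside 3322 of the 18757 genes. DESeq2 and limma-voom also called 0, beside 7.74% and 0.0107% of genes. Median log2 fold changes of TCF-1 cKO over WT were -0.45 for the GTPases and -0.12 for the others, against 0.05 for all genes. The groups did not overlap for 11 members, 9 of them lower in TCF-1 cKO, beside 30.3% of all genes in either direction. Under an offset for GC content and length (described below), 0 passed as well, beside 0.0693% of genes. The medians then were -1.09 for the GTPases, with 11 of 12 below 0, and -0.52 for the others, against -0.33 for all genes. By edgeR 12 members then had an unadjusted p under 0.05, 6 of them GTPases, beside 4315 of the 18757 genes. Leaving out TCF-1 cKO replicate 3 gave 4 lower calls (Ifi35, Irf1, Irf7 and Xaf1), beside 8.91% of genes. CD8 T cell, B cell and plasmacytoid dendritic cell marker sums were all lower in TCF-1 cKO libraries without overlap, the last at 94.9 to 171 against 211 to 243, and their part in these values was not tested.

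At day 7 the genotypes differed at 10 members, 3 higher and 7 lower in TCF-1 cKO. In all that follows, a value before an adjusted p is a log2 fold change fitted by edgeR. Ifi208, Ubd and the GTPase Iigp1 were higher, and Irf7, Irf9, Bst2, Oas3, Oas1a, Dhx58 and Oasl1 were lower. Of 16026 genes tested, 2.51% were called higher and 15.4% lower, so that the 7 lower members are near the background share of genes. GTPases had a median log2 fold change of 0.88, with 10 of 12 above 0, the others 0.16 and all genes 0.15. The libraries of the groups did not overlap for 24 members, 18 higher and 6 lower, beside 40.8% of all genes (23.4% higher), and 8 of these were GTPases, all higher. The called members depended on single libraries. Leaving out the library labelled WT replicate 3 at day 7 kept all 10 and brought the calls to 6 higher and 9 lower, beside 9.72% and 19.4% of genes. Leaving out any one of the other 5 libraries left 0 members called, in fits that called 0 to 2 of all genes, and all 10 kept their direction. DESeq2 called 8 higher and 9 lower, beside 6.66% and 21.6% of genes. By limma-voom 4 and 4 were called, beside 3.63% and 13.4%, and with scaling by library totals 4 and 2, beside 3.09% and 10.8%.

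GC content moved with this comparison. Over all genes, the median log2 fold change ran from 0.67 in the lowest of 10 equal bins by GC content (median 39.7%) to -2.45 in the highest (58.8%). Spearman's rho between GC content and fold change was -0.55 across the 16026 genes and -0.70 across the 46 members, as a description, since genes share libraries. The called lower members had GC contents of 51.3% (Irf9) to 57.6% (Bst2), the called higher members 39.4% (Iigp1) to 43.8% (Ifi208), and the GTPases had a median of 46.4% beside 48.4% for the others. With an offset that removes each library's trend on GC content and length, 5.17% of genes were called and 2 members remained, Ifi208 (2.23, adjusted p = 0.0910) and Irf9 (-1.90, adjusted p = 0.0924). The GTPase median fell to 0.29, beside -0.13 for all genes, with 7 of 12 above 0. All 10 members kept their direction under the offset.

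**Figure D2:**
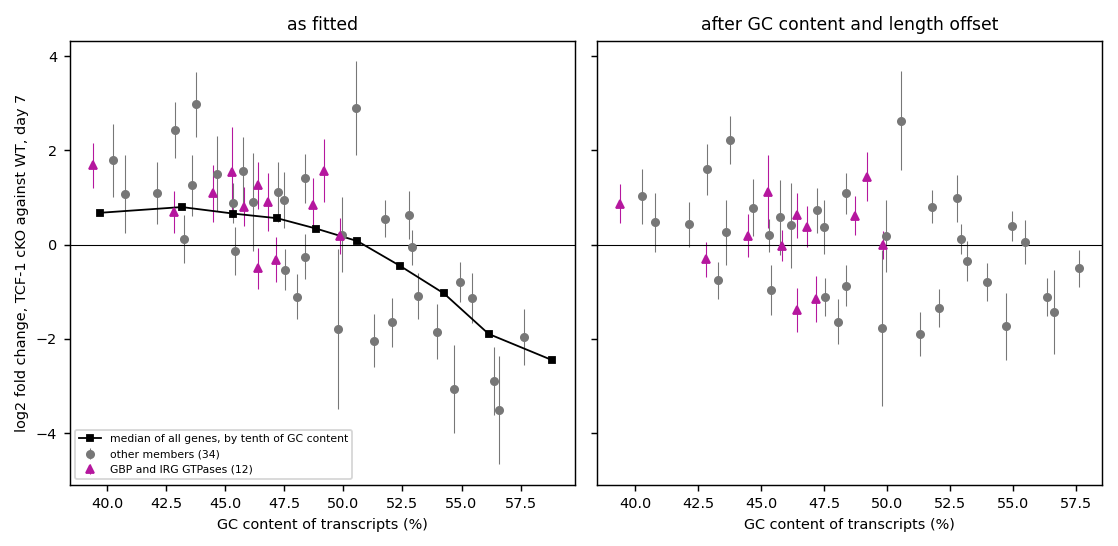
Log2 fold change of TCF-1 cKO over WT at day 7 (± SE) of the 46 members against transcript GC content (%), as fitted (left) and after the GC content and length offset (right), with the median of all genes in each of 10 GC content bins as a black line. Members at high GC content, such as Irf7 and Bst2, lie below 0 on the left, and the black line is drawn only there.

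From pre-transplant to day 7, WT cells had 4 members higher (Zbp1, Oas1a, Ifi35 and Ifi27l2a) and 7 lower (Ifi208, Rsad2, Stat2, Oas2, Ifit3, Ddx58 and Parp14), beside 9.7% and 10.3% of 16790 genes. No GTPase passed by edgeR, with 1 at an unadjusted p under 0.05 (Tgtp1, -1.81, adjusted p = 0.118), beside 4723 of the 16790 genes. DESeq2 called that gene lower, and limma-voom called 0. The GTPase median was -0.72 beside -0.30 for all genes, and it turned to 0.22, beside 0.11 for all genes, under the GC content and length offset, where the calls were 6 higher, now with Igtp and Xaf1, and 7 lower, now with Oasl1 and Trim30a, beside 20.8% of genes, so that its direction in WT cells depended on the scaling. DESeq2 called 5 members higher and 11 lower in WT, beside 14.8% and 12.8% of genes. Of the 11 WT calls, 5 (Oas2, Rsad2, Stat2, Ifi35 and Ifi208) held in all 6 fits that left out a library. TCF-1 cKO cells had 19 members higher and 7 lower, beside 19.7% and 16.8% of 18535 genes. Of the GTPases, 8 were higher and 1 lower, with a median of 1.39 beside -0.29 for all genes, and of the others 11 were higher and 6 lower, with a median of 0.28. In TCF-1 cKO the offset kept 23 of these 26 calls and gave 17 higher, now with Irf1, and 10 lower, now with Usp18, Dhx58 and Cxcl10, beside 37.1% of genes. All but 8 of the 26 calls (Isg15, Oas1a, Irf9, Ddx58, Gbp5, Irgm1, Tgtp1 and Samd9l) held in all 6 fits that left out a library. Within each genotype, summed B cell, myeloid and erythroid markers were lower, and summed CD8 T cell markers higher, in every day 7 library than in every pre-transplant library, and their part in these changes was not tested. Both stage comparisons used the same libraries as the genotype comparisons, and their values are not independent of those.

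Scaling mattered for the stage comparisons. With library totals in place of composition factors, the median of all genes moved from -0.29 to -1.89 in TCF-1 cKO and from -0.30 to -1.25 in WT, and the calls became 4 higher (Herc6, Igtp, Ubd and Zbp1) and 23 lower in TCF-1 cKO, beside 8.96% and 57.2% of genes, and 1 higher and 17 lower in WT, beside 4.27% and 24.6%. Relative to the median of all genes, the TCF-1 cKO GTPases stood 1.63 above with library totals and 1.68 above with composition factors, 11 of 12 being above it in both. Of the 26 members called in TCF-1 cKO, 22 kept their direction with library totals, and Gbp4, Irgm1, Tgtp1 and Rtp4 turned negative. All directions below are therefore relative to the composition-scaled libraries.

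**Figure D3:**
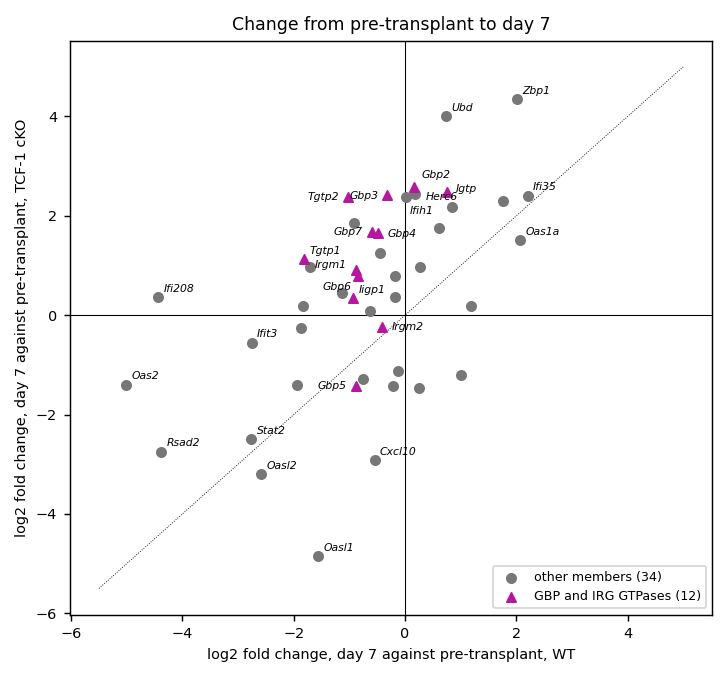
Log2 fold change from pre-transplant to day 7 in WT (x axis) and TCF-1 cKO (y axis) for the 46 members, GTPases and other members marked apart. The 12 GTPases have a median of -0.72 in WT and 1.39 in TCF-1 cKO, and Ifi208, Stat2, Rsad2 and Oas2 are below 0 in WT.

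The test of the difference between these changes, as a genotype by stage interaction over 12 libraries, passed for 0 of the 46 members by edgeR, beside 0.00465% of 21526 genes. By edgeR 16 members had an unadjusted p under 0.05, 8 of them GTPases, beside 3377 of the 21526 genes. The smallest adjusted p among members was 0.226 (Ifi208). DESeq2 called 9 higher (Gbp2, Gbp3, Gbp7, Igtp, Tgtp1, Tgtp2, Ifi208, Trim30a and Zbp1) and 1 lower (Oasl1), beside 4.59% and 3.37% of genes, and limma-voom 0. Without the library labelled WT replicate 3 at day 7, edgeR called 10 higher, among them Gbp2, Gbp4, Tgtp1 and Tgtp2, and 2 lower (Oas3 and Oasl1), beside 5.48% and 3.25% of genes. The GTPase median of the interaction was 1.71 beside 0.60 for the others and 0.04 for all genes. Interaction values also moved with GC content, with a Spearman's rho of -0.23 across all genes and -0.58 across the members. Once the offset was applied, the GTPases stood at a median of 1.34, the others at 0.49 and all genes at 0.02. By edgeR 0 members passed there too, and rho across the members was still -0.46. How many GTPases were called for this difference thus depended on the tool and on one library.

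Among the GBPs, which coat pathogen vacuoles and assemble on bacterial surfaces, Gbp2, Gbp3, Gbp4 and Gbp7 rose over time in TCF-1 cKO cells. Gbp2 was at 40.0, 24.6 and 44.8 normalized CPM in WT and 21.5, 20.7 and 9.23 in TCF-1 cKO libraries pre-transplant, and at 60.3, 17.8 and 67.1 in WT and 107, 77.6 and 127 in TCF-1 cKO libraries at day 7. Gbp3 was at 28.0, 18.1 and 62.0 normalized CPM in WT and 16.4, 26.6 and 25.1 in TCF-1 cKO libraries pre-transplant, and at 47.0, 8.89 and 46.1 in WT and 152, 73.6 and 142 in TCF-1 cKO libraries at day 7. The day 7 TCF-1 cKO libraries of both genes stood above every other library, pre-transplant or WT. From pre-transplant to day 7 in TCF-1 cKO, Gbp2 rose (log2 fold change 2.59 ± 0.46 SE, adjusted p = 0.00273) and so did Gbp3 (log2 fold change 2.42 ± 0.43 SE, adjusted p = 0.00272). Between the genotypes at day 7 neither passed, at 0.85, adjusted p = 0.350 for Gbp2 and 1.57, adjusted p = 0.165 for Gbp3.

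Gbp7 was at 61.3, 54.4 and 78.3 normalized CPM in WT and 49.3, 33.1 and 37.6 in TCF-1 cKO libraries pre-transplant, and at 72.7, 16.2 and 60.1 in WT and 148, 90.3 and 149 in TCF-1 cKO libraries at day 7. Gbp4 was at 88.7, 50.4 and 108 normalized CPM in WT and 64.4, 45.8 and 36.8 in TCF-1 cKO libraries pre-transplant, and at 67.5, 20.1 and 125 in WT and 213, 107 and 146 in TCF-1 cKO libraries at day 7. Gbp7 libraries of TCF-1 cKO at day 7 lay above all others, whereas those of Gbp4 overlapped with WT at day 7, where replicate 2 was lowest for both genes. In TCF-1 cKO cells Gbp7 rose (log2 fold change 1.68 ± 0.38 SE, adjusted p = 0.00934), as did Gbp4 (log2 fold change 1.65 ± 0.41 SE, adjusted p = 0.0145), and in WT cells both were within their spread (-0.60 and -0.48, adjusted p = 0.577 and 0.681). Gbp2, Gbp3, Gbp4 and Gbp7 kept their TCF-1 cKO call when any one library was left out.

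Gbp5, a promoter of inflammasome assembly, went the other way. It was at 45.4, 62.1 and 15.8 normalized CPM in WT and 65.1, 57.7 and 76.9 in TCF-1 cKO libraries pre-transplant, and at 18.9, 32.3 and 29.2 in WT and 16.3, 28.6 and 30.0 in TCF-1 cKO libraries at day 7. All day 7 libraries of TCF-1 cKO were below those pre-transplant, and Gbp5 fell in these cells (log2 fold change -1.42 ± 0.39 SE, adjusted p = 0.0227), a call that was lost without TCF-1 cKO replicate 1 of day 7. The genotypes overlapped at day 7 (-0.32, adjusted p = 0.687). Gbp6 was at 30.6, 18.7 and 41.3 normalized CPM in WT and 14.4, 25.97 and 25.6 in TCF-1 cKO libraries pre-transplant, and at 16.1, 15.4 and 29.9 in WT and 43.5, 38.0 and 33.3 in TCF-1 cKO libraries at day 7. Its day 7 TCF-1 cKO libraries were above those of WT without overlap, but neither this difference (0.69, adjusted p = 0.329) nor its change over time in TCF-1 cKO (0.79, adjusted p = 0.165) passed.

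**Figure D4:**
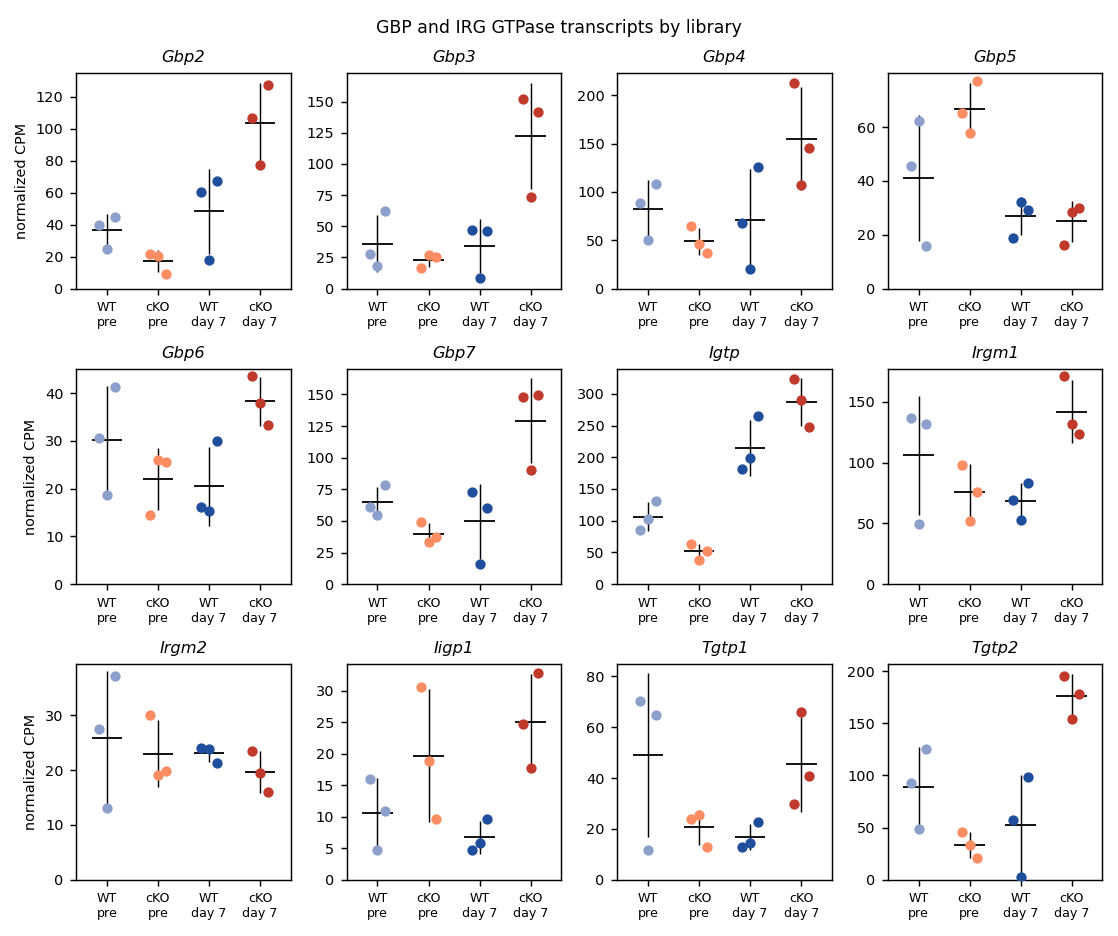
Normalized CPM of the 12 GTPases in each library by group, with points for libraries, a horizontal line for the mean and a vertical line for the SD (n = 3), drawn no lower than 0. For Gbp2, Gbp3, Gbp7, Igtp and Tgtp2 the 3 TCF-1 cKO libraries of day 7 lie above the 3 TCF-1 cKO libraries pre-transplant, with Gbp2 at 77.6 to 127 against 9.23 to 21.5.

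The IRG family divides into regulators (Irgm1, Irgm2 and Igtp), which sit on host membranes, and effectors (Iigp1, Tgtp1 and Tgtp2), which load onto parasite vacuoles. Igtp, the gene of Irgm3, was at 85.4, 103 and 131 normalized CPM in WT and 63.1, 38.8 and 52.7 in TCF-1 cKO libraries pre-transplant, and at 181, 199 and 265 in WT and 323, 291 and 248 in TCF-1 cKO libraries at day 7. The lowest day 7 library of either genotype exceeded the highest pre-transplant library. Igtp rose in TCF-1 cKO cells (log2 fold change 2.47 ± 0.36 SE, adjusted p = 0.00102) and did not pass in WT cells (0.75, adjusted p = 0.322). At day 7 the genotypes overlapped (0.19, adjusted p = 0.771).

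Irgm1 was at 137, 49.8 and 132 normalized CPM in WT and 98.3, 52.2 and 75.8 in TCF-1 cKO libraries pre-transplant, and at 68.9, 53.1 and 83.1 in WT and 171, 132 and 123 in TCF-1 cKO libraries at day 7. The lowest TCF-1 cKO library of day 7 exceeded the highest WT library, although the difference did not pass (0.81, adjusted p = 0.238). Its rise in TCF-1 cKO cells was just past the threshold (log2 fold change 0.91 ± 0.37 SE, adjusted p = 0.0984) and remained in 2 of 6 fits that left out a library. Irgm2 passed in no comparison, and its day 7 levels were 21.3 to 24.0 in WT and 15.96 to 23.5 in TCF-1 cKO libraries.

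Of the effectors, Iigp1 was at 15.9, 4.67 and 10.9 normalized CPM in WT and 30.6, 18.8 and 9.57 in TCF-1 cKO libraries pre-transplant, and at 4.72, 5.77 and 9.58 in WT and 24.7, 17.7 and 32.7 in TCF-1 cKO libraries at day 7. At day 7 all TCF-1 cKO libraries were above all WT libraries, and Iigp1 was the one GTPase called between the genotypes (log2 fold change 1.69 ± 0.47 SE, adjusted p = 0.0590). Under the GC content and length offset it did not pass. Its level did not change detectably within TCF-1 cKO cells from pre-transplant to day 7 (0.34, adjusted p = 0.653).

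Tgtp1 was at 70.4, 11.8 and 64.7 normalized CPM in WT and 23.7, 25.3 and 12.8 in TCF-1 cKO libraries pre-transplant, and at 13.1, 14.5 and 22.7 in WT and 29.6, 66.0 and 40.7 in TCF-1 cKO libraries at day 7. Tgtp2 was at 93.0, 49.1 and 125 normalized CPM in WT and 45.8, 33.7 and 20.6 in TCF-1 cKO libraries pre-transplant, and at 56.8, 2.50 and 98.7 in WT and 196, 154 and 178 in TCF-1 cKO libraries at day 7. WT replicate 2 of day 7 was far below the other WT libraries for Tgtp2, and TCF-1 cKO libraries of that day were above all WT libraries for both genes. Tgtp2 rose in TCF-1 cKO cells (log2 fold change 2.39 ± 0.41 SE, adjusted p = 0.00233), as did Tgtp1 (log2 fold change 1.13 ± 0.46 SE, adjusted p = 0.0970), the latter in 1 of 6 fits that left out a library. Between the genotypes at day 7 neither passed (1.26, adjusted p = 0.149 for Tgtp1 and 1.54, adjusted p = 0.321 for Tgtp2). With most of their sequence shared, how reads divide between the pair is uncertain.

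Summed over the 12 GTPases, libraries held 459 to 851 normalized CPM in WT and 398 to 523 in TCF-1 cKO pre-transplant, and 409 to 858 in WT and 1095 to 1448 in TCF-1 cKO at day 7. The TCF-1 cKO libraries of day 7 were thus above all others. Over the 34 other members the sums were 1572 to 2159, 967 to 1860, 2641 to 3590 and 2732 to 3258 in the same order, and at day 7 the genotypes overlapped. Plasmacytoid dendritic cell markers (5 genes) summed to 14.0 to 27.3 in WT and 31.9 to 47.1 in TCF-1 cKO libraries at day 7. Of the 5 genes, only Tcf4 did not overlap, at 5.77 to 9.68 in WT and 17.6 to 20.6 in TCF-1 cKO libraries, whereas Siglech, Klk1, Cox6a2 and Ccr9 overlapped. Myeloid markers were at 194 to 290 and 207 to 773. The part of these markers in the result was not tested. Pre-transplant, 9 of 12 GTPases were below 0 in TCF-1 cKO over WT, beside 48.7% of all genes. Gbp2, Gbp7, Igtp and Tgtp2 did not overlap, which is near the 30.3% of all genes without overlap in either direction. The smallest adjusted p was that of Tgtp2 (log2 fold change -1.15 ± 0.50 SE, adjusted p = 0.269).

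All 4 transcription factors of the response were below 0 in TCF-1 cKO over WT at day 7, and 2 of them passed. Under the GC content and length offset Irf1 was above 0 (0.39, adjusted p = 0.503). Irf7, which amplifies type I interferon production, was at 165, 115 and 193 normalized CPM in WT and 60.3, 34.9 and 212 in TCF-1 cKO libraries pre-transplant, and at 205, 394 and 64.6 in WT and 48.9, 32.7 and 30.0 in TCF-1 cKO libraries at day 7. All TCF-1 cKO libraries of day 7 were below all WT libraries, of which the library labelled WT replicate 3 was nearest. Irf7 was lower in TCF-1 cKO (log2 fold change -2.89 ± 0.71 SE, adjusted p = 0.0459), and this was not called after the GC content and length offset. Over time in TCF-1 cKO cells it did not pass (-1.46, adjusted p = 0.112), with pre-transplant replicate 3 far above the other replicates.

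Irf9, the DNA-binding subunit of ISGF3, was at 106, 95.8 and 148 normalized CPM in WT and 82.6, 58.9 and 139.8 in TCF-1 cKO libraries pre-transplant, and at 136, 156 and 62.2 in WT and 29.2, 43.5 and 32.7 in TCF-1 cKO libraries at day 7. The groups of day 7 did not overlap, and Irf9 was lower in TCF-1 cKO (log2 fold change -2.03 ± 0.56 SE, adjusted p = 0.0561), the one lower call kept under the offset. It also fell over time in TCF-1 cKO cells (log2 fold change -1.42 ± 0.42 SE, adjusted p = 0.0316), a call lost in 3 of 6 fits that left out a library. Stat2, the ISGF3 subunit that carries its activation domain, was at 145, 54.4 and 71.9 normalized CPM in WT and 52.6, 38.4 and 59.8 in TCF-1 cKO libraries pre-transplant, and at 19.7, 15.2 and 11.6 in WT and 9.54, 8.79 and 8.41 in TCF-1 cKO libraries at day 7. Every day 7 library was below every pre-transplant library of either genotype. Stat2 fell in WT (log2 fold change -2.76 ± 0.61 SE, adjusted p = 0.0150) and in TCF-1 cKO cells (log2 fold change -2.50 ± 0.39 SE, adjusted p = 0.00139). Between the genotypes at day 7 it did not pass (-1.10, adjusted p = 0.186), although the libraries did not overlap.

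Irf1, the factor induced directly by interferon-γ, was at 262, 298 and 247 normalized CPM in WT and 131, 82.2 and 199 in TCF-1 cKO libraries pre-transplant, and at 424, 405 and 314 in WT and 339, 266 and 200.3 in TCF-1 cKO libraries at day 7. Pre-transplant the TCF-1 cKO libraries were all below those of WT, and at day 7 the groups overlapped. No comparison of Irf1 passed without the offset, with -0.79, adjusted p = 0.321 pre-transplant, -0.79, adjusted p = 0.261 at day 7 and 0.96, adjusted p = 0.111 over time in TCF-1 cKO cells, where it was called higher under the offset (0.94, adjusted p = 0.0321). When the library labelled WT replicate 3 was left out, Irf1 and Stat2 were called lower at day 7.

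Sensors moved in different directions. Zbp1, which senses Z-form nucleic acid and starts necroptosis, was at 71.1, 46.2 and 55.6 normalized CPM in WT and 27.0, 17.6 and 25.4 in TCF-1 cKO libraries pre-transplant, and at 217, 200.4 and 426 in WT and 511, 421 and 499 in TCF-1 cKO libraries at day 7. Every day 7 library exceeded every pre-transplant library. Zbp1 rose in WT (log2 fold change 2.01 ± 0.50 SE, adjusted p = 0.0254) and in TCF-1 cKO cells (log2 fold change 4.35 ± 0.38 SE, adjusted p = 0.000119), where its adjusted p was the smallest of the 46 members. The genotypes overlapped at day 7 through the library labelled WT replicate 3 (0.55, adjusted p = 0.392). Pre-transplant the TCF-1 cKO libraries were lower without overlap (-1.08, adjusted p = 0.244).

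Ddx58, the gene of RIG-I, was at 118, 59.0 and 110.3 normalized CPM in WT and 87.7, 83.7 and 92.3 in TCF-1 cKO libraries pre-transplant, and at 26.7, 33.2 and 29.1 in WT and 57.0, 17.0 and 25.8 in TCF-1 cKO libraries at day 7. It fell in WT (log2 fold change -1.94 ± 0.52 SE, adjusted p = 0.0326) and in TCF-1 cKO cells (log2 fold change -1.41 ± 0.47 SE, adjusted p = 0.0518), without overlap in both. The WT call was lost under the GC content and length offset and in 3 of 6 fits that left out a library, as was the TCF-1 cKO call in 3 of 6. Dhx58, the gene of the RIG-I regulator LGP2, was at 36.1, 64.3 and 36.1 normalized CPM in WT and 26.6, 16.03 and 65.3 in TCF-1 cKO libraries pre-transplant, and at 48.3, 74.8 and 23.8 in WT and 13.3, 18.4 and 17.9 in TCF-1 cKO libraries at day 7. At day 7 all TCF-1 cKO libraries were below all WT libraries (log2 fold change -1.85 ± 0.58 SE, adjusted p = 0.0807), and this too was not called under the offset. Over time in TCF-1 cKO cells Dhx58 did not pass (-1.12, adjusted p = 0.149) but was called lower under the offset (-1.31, adjusted p = 0.0325). Ifih1, the gene of MDA5, was at 9.91, 5.06 and 13.9 normalized CPM in WT and 11.7, 7.63 and 2.72 in TCF-1 cKO libraries pre-transplant, and at 10.1, 1.87 and 23.7 in WT and 31.7, 22.7 and 60.6 in TCF-1 cKO libraries at day 7. It rose in TCF-1 cKO cells (log2 fold change 2.37 ± 0.62 SE, adjusted p = 0.0192), and at day 7 its groups overlapped (adjusted p = 0.253).

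**Figure D5:**
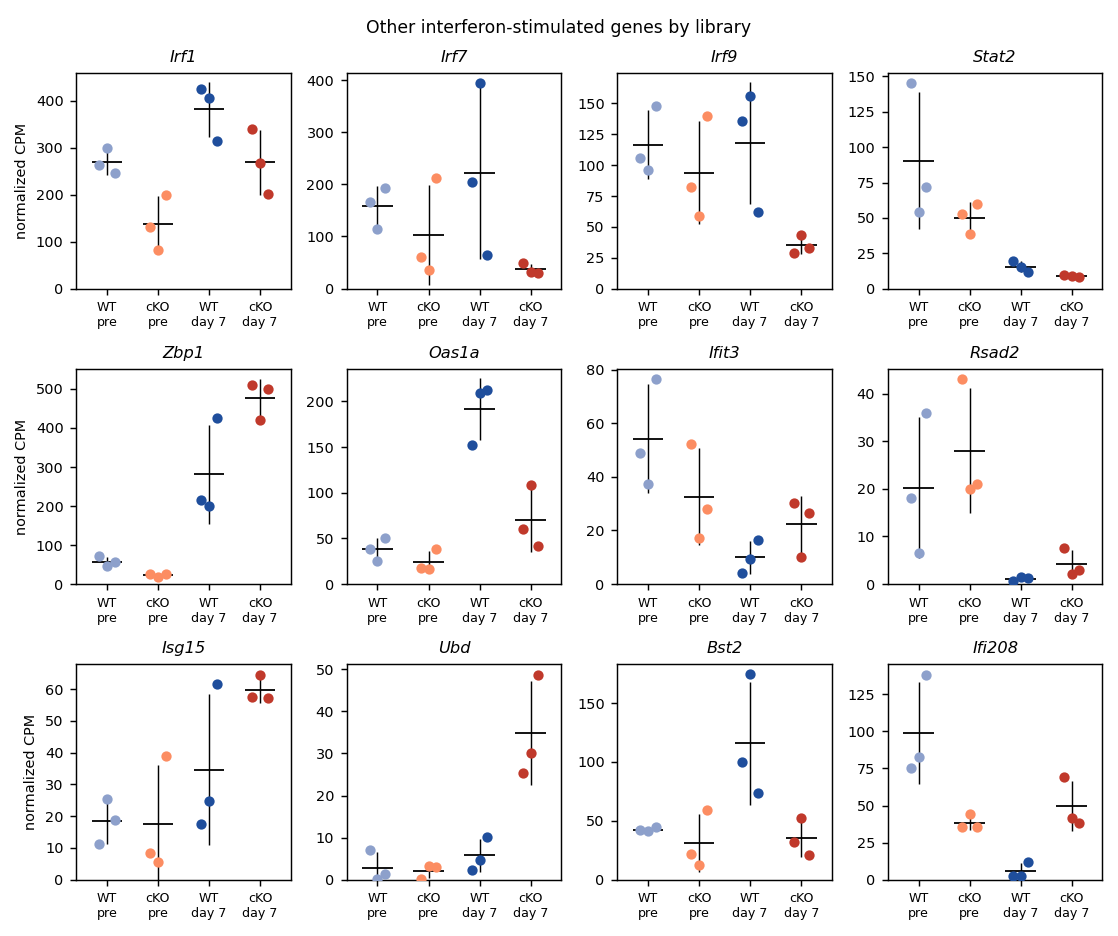
Normalized CPM of 12 members outside the GTPases (Irf1, Irf7, Irf9, Stat2, Zbp1, Oas1a, Ifit3, Rsad2, Isg15, Ubd, Bst2 and Ifi208) in each library, with points for libraries, a horizontal line for the mean and a vertical line for the SD (n = 3), drawn no lower than 0. Irf7, Irf9, Bst2 and Oas1a are lower, and Ifi208 and Ubd higher, in the TCF-1 cKO than in the WT libraries of day 7.

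The 2'-5' oligoadenylate synthetases, which activate RNase L, and their relative Oasl1 held 3 of the 7 lower calls of day 7. Oas1a was at 38.6, 25.2 and 50.4 normalized CPM in WT and 18.2, 17.1 and 38.2 in TCF-1 cKO libraries pre-transplant, and at 152, 209 and 212 in WT and 60.1, 109 and 41.5 in TCF-1 cKO libraries at day 7. The groups of day 7 did not overlap, and Oas1a was lower in TCF-1 cKO (log2 fold change -1.65 ± 0.51 SE, adjusted p = 0.0791), while it rose over time in WT (log2 fold change 2.06 ± 0.50 SE, adjusted p = 0.0222) and in TCF-1 cKO cells (log2 fold change 1.52 ± 0.50 SE, adjusted p = 0.0476). Oas3 was at 46.1, 29.1 and 56.4 normalized CPM in WT and 27.1, 19.4 and 63.7 in TCF-1 cKO libraries pre-transplant, and at 58.0, 239 and 20.9 in WT and 23.4, 6.91 and 17.8 in TCF-1 cKO libraries at day 7. Its day 7 groups overlapped and WT replicate 2 was far above the rest, so that the call (log2 fold change -3.06 ± 0.93 SE, adjusted p = 0.0735) rests on a group mean that one library carries.

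Oasl1, a synthetase-like protein without enzyme activity, was at 18.6, 13.1 and 23.2 normalized CPM in WT and 16.8, 11.7 and 41.8 in TCF-1 cKO libraries pre-transplant, and at 3.42, 18.3 and 0.598 in WT and 0.788, 0.549 and 1.05 in TCF-1 cKO libraries at day 7. WT replicate 2 again stood apart, the library labelled WT replicate 3 at day 7 was within the TCF-1 cKO range, and the day 7 difference passed (log2 fold change -3.51 ± 1.15 SE, adjusted p = 0.0905). Oasl1 fell in TCF-1 cKO cells without overlap (log2 fold change -4.85 ± 0.67 SE, adjusted p = 0.000781). Oasl2 was at 4.10, 9.69 and 30.9 normalized CPM in WT and 58.5, 23.6 and 32.9 in TCF-1 cKO libraries pre-transplant, and at 4.91, 1.01 and 2.56 in WT and 6.22, 1.49 and 4.89 in TCF-1 cKO libraries at day 7. It fell in TCF-1 cKO cells (log2 fold change -3.20 ± 0.63 SE, adjusted p = 0.00475) and had the smallest adjusted p of the members above 0 pre-transplant, where it did not pass (log2 fold change 1.59 ± 0.69 SE, adjusted p = 0.267). Oas2 was at 15.3, 3.93 and 15.6 normalized CPM in WT and 14.2, 15.2 and 1.43 in TCF-1 cKO libraries pre-transplant, and at 0.193, 1.01 and 0.0855 in WT and 2.63, 3.53 and 5.57 in TCF-1 cKO libraries at day 7. It fell in WT cells (log2 fold change -5.01 ± 1.13 SE, adjusted p = 0.0172), with the library labelled WT replicate 3 at day 7 at 1 count, and at day 7 its higher level in TCF-1 cKO libraries, without overlap, missed the threshold (2.90, adjusted p = 0.101).

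The IFIT proteins bind foreign RNA ends and block translation. Ifit3 was at 48.8, 37.4 and 76.6 normalized CPM in WT and 52.4, 17.2 and 28.0 in TCF-1 cKO libraries pre-transplant, and at 4.05, 9.52 and 16.3 in WT and 30.2, 10.2 and 26.4 in TCF-1 cKO libraries at day 7. All day 7 WT libraries were below all pre-transplant WT libraries, and Ifit3 fell in WT (log2 fold change -2.75 ± 0.65 SE, adjusted p = 0.0203) but did not pass in TCF-1 cKO cells (-0.56, adjusted p = 0.486). Ifit1 was at 24.9, 5.69 and 21.0 normalized CPM in WT and 19.3, 21.8 and 11.7 in TCF-1 cKO libraries pre-transplant, and at 17.4, 9.13 and 27.7 in WT and 31.8, 17.0 and 20.3 in TCF-1 cKO libraries at day 7. Its groups overlapped throughout and no comparison passed, with 0.11, adjusted p = 0.902 between the genotypes at day 7. Ifit2 passed in none either, at 0.312 to 16.7 in WT and 12.003 to 39.5 in TCF-1 cKO libraries of day 7.

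Eif2ak2, the gene of the kinase PKR, was at 31.03, 24.4 and 19.7 normalized CPM in WT and 38.3, 47.5 and 32.2 in TCF-1 cKO libraries pre-transplant, and at 17.0, 14.4 and 27.0 in WT and 48.5, 36.3 and 41.6 in TCF-1 cKO libraries at day 7. The TCF-1 cKO libraries were above those of WT at both stages without overlap, yet neither difference passed (0.91, adjusted p = 0.305 pre-transplant and 0.88, adjusted p = 0.216 at day 7). Samd9l, the gene of an antiviral protein that restrains translation, was at 85.2, 21.0 and 80.7 normalized CPM in WT and 56.1, 56.4 and 17.6 in TCF-1 cKO libraries pre-transplant, and at 33.9, 6.48 and 80.5 in WT and 216, 84.1 and 179 in TCF-1 cKO libraries at day 7. It rose in TCF-1 cKO cells (log2 fold change 1.87 ± 0.55 SE, adjusted p = 0.0306). At day 7 all TCF-1 cKO libraries were above all WT libraries, the lowest by a small margin (1.79, adjusted p = 0.176), and without the library labelled WT replicate 3 Samd9l was called higher.

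Effectors at membranes and related members also split. Bst2, the gene of tetherin, which holds budding virions at the cell surface, was at 42.0, 41.3 and 44.3 normalized CPM in WT and 21.9, 12.3 and 59.1 in TCF-1 cKO libraries pre-transplant, and at 99.5, 174 and 73.6 in WT and 32.1, 52.7 and 21.1 in TCF-1 cKO libraries at day 7. The day 7 groups did not overlap and Bst2 was lower in TCF-1 cKO (log2 fold change -1.96 ± 0.59 SE, adjusted p = 0.0718), though not under the GC content and length offset. Mx1, the gene of a dynamin-like GTPase, was at 19.99, 6.57 and 21.4 normalized CPM in WT and 24.0, 15.4 and 19.96 in TCF-1 cKO libraries pre-transplant, and at 6.94, 4.84 and 14.6 in WT and 33.7, 18.2 and 29.4 in TCF-1 cKO libraries at day 7. All TCF-1 cKO libraries of day 7 were above those of WT, and the difference missed the threshold (1.41, adjusted p = 0.120), passing without the library labelled WT replicate 3 at day 7. Rsad2, the gene of viperin, was at 18.1, 6.64 and 35.9 normalized CPM in WT and 43.1, 19.99 and 21.0 in TCF-1 cKO libraries pre-transplant, and at 0.674, 1.56 and 1.28 in WT and 7.53, 2.12 and 2.97 in TCF-1 cKO libraries at day 7. It fell in WT (log2 fold change -4.39 ± 0.87 SE, adjusted p = 0.00925) and in TCF-1 cKO cells (log2 fold change -2.75 ± 0.62 SE, adjusted p = 0.00929), and at day 7 the TCF-1 cKO libraries were above those of WT without overlap (1.57, adjusted p = 0.195).

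Xaf1, the gene of an antagonist of the apoptosis inhibitor XIAP, was at 43.8, 51.3 and 40.6 normalized CPM in WT and 17.1, 11.97 and 23.9 in TCF-1 cKO libraries pre-transplant, and at 67.2, 108 and 120.5 in WT and 95.1, 83.7 and 60.7 in TCF-1 cKO libraries at day 7. Pre-transplant its TCF-1 cKO libraries lay below all WT libraries, with the smallest adjusted p of the 46 members at that stage (log2 fold change -1.16 ± 0.44 SE, adjusted p = 0.238). It rose in TCF-1 cKO cells (log2 fold change 2.17 ± 0.41 SE, adjusted p = 0.00387), and in WT cells it was called only under the offset (0.85, adjusted p = 0.286 without it). Rtp4, the gene of a receptor transporter, was at 39.4, 27.2 and 37.9 normalized CPM in WT and 38.2, 27.6 and 30.1 in TCF-1 cKO libraries pre-transplant, and at 23.8, 8.74 and 61.3 in WT and 77.9, 70.5 and 80.6 in TCF-1 cKO libraries at day 7. The rise in TCF-1 cKO cells passed (log2 fold change 1.25 ± 0.34 SE, adjusted p = 0.0240) but turned to -0.37 with library totals. Between the genotypes at day 7 it did not pass (1.12, adjusted p = 0.280), although the groups did not overlap.

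Of the ubiquitin-like system, Ubd stood out. Ubd, the gene of FAT10, a modifier that sends proteins to the proteasome and is induced by interferon-γ with TNF, was at 6.97, 0.0702 and 1.36 normalized CPM in WT and 0.176, 3.19 and 3.05 in TCF-1 cKO libraries pre-transplant, and at 2.36, 4.76 and 10.2 in WT and 25.4, 30.1 and 48.8 in TCF-1 cKO libraries at day 7. At day 7 every TCF-1 cKO library exceeded every WT library, and Ubd was higher in TCF-1 cKO (log2 fold change 2.43 ± 0.59 SE, adjusted p = 0.0459), a call lost under the offset. It also rose over time in TCF-1 cKO cells (log2 fold change 4.01 ± 0.84 SE, adjusted p = 0.00653), and in WT cells it did not pass (0.74, adjusted p = 0.742). WT replicate 2 and TCF-1 cKO replicate 1 pre-transplant each held 2 counts of this gene, and the TCF-1 cKO rise was called in 6 of 6 fits that left out a library.

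Isg15, the ubiquitin-like modifier of the type I response, was at 11.2, 25.4 and 18.8 normalized CPM in WT and 8.35, 5.70 and 38.9 in TCF-1 cKO libraries pre-transplant, and at 17.5, 24.7 and 61.7 in WT and 57.6, 64.6 and 57.2 in TCF-1 cKO libraries at day 7. The library labelled WT replicate 3 exceeded 2 of the TCF-1 cKO libraries at day 7, and the other two WT libraries were lower (0.63, adjusted p = 0.444). Isg15 rose in TCF-1 cKO cells (log2 fold change 1.76 ± 0.67 SE, adjusted p = 0.0770), a call lost in 5 of 6 fits that left out a library and under the offset. Usp18, which removes ISG15 and dampens the receptor, passed in no comparison without the offset, was called lower over time in TCF-1 cKO cells with it (-2.32, adjusted p = 0.0132), and was at 18.1 to 32.6 in WT and 9.40 to 21.97 in TCF-1 cKO libraries of day 7.

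Herc6, the mouse ISG15 ligase, was at 26.02, 13.2 and 13.6 normalized CPM in WT and 8.26, 10.1 and 13.6 in TCF-1 cKO libraries pre-transplant, and at 20.9, 2.50 and 49.2 in WT and 64.4, 45.1 and 63.8 in TCF-1 cKO libraries at day 7. It rose in TCF-1 cKO cells (log2 fold change 2.43 ± 0.40 SE, adjusted p = 0.00189) with every day 7 library above every pre-transplant library, and the library labelled WT replicate 3 at day 7 brought the groups of day 7 into overlap (1.08, adjusted p = 0.418). Trim30a, a regulator of innate signalling, was at 75.5, 41.3 and 84.9 normalized CPM in WT and 25.8, 48.6 and 20.4 in TCF-1 cKO libraries pre-transplant, and at 30.7, 6.24 and 35.6 in WT and 85.5, 36.3 and 65.4 in TCF-1 cKO libraries at day 7. Its change did not pass in either genotype (-1.71, adjusted p = 0.136 in WT and 0.97, adjusted p = 0.161 in TCF-1 cKO), although it was called lower in WT under the offset (-1.42, adjusted p = 0.0968), and it was among the members DESeq2 called for the interaction.

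Among the remaining members, Ifi208, a member of the AIM2-like family of DNA-binding proteins, had the largest fold change of the 3 members called higher at day 7. It was at 75.1, 82.9 and 138 normalized CPM in WT and 35.4, 44.5 and 35.4 in TCF-1 cKO libraries pre-transplant, and at 2.50, 2.50 and 12.1 in WT and 69.3, 41.9 and 38.0 in TCF-1 cKO libraries at day 7. Libraries of TCF-1 cKO at day 7 were above all WT libraries, and the order was reversed pre-transplant, each without overlap. Ifi208 was higher in TCF-1 cKO at day 7 (log2 fold change 2.97 ± 0.68 SE, adjusted p = 0.0448), did not pass pre-transplant (-1.12, adjusted p = 0.239), fell in WT cells (log2 fold change -4.43 ± 0.77 SE, adjusted p = 0.00546) and did not change detectably in TCF-1 cKO cells (0.36, adjusted p = 0.516). Its interaction had the smallest p among members (log2 fold change 4.49 ± 0.87 SE, adjusted p = 0.226).

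Ifi35, a partner of NMI, was at 76.0, 105 and 132 normalized CPM in WT and 45.8, 37.5 and 89.1 in TCF-1 cKO libraries pre-transplant, and at 433, 719 and 588 in WT and 204, 513 and 198 in TCF-1 cKO libraries at day 7. It rose in WT (log2 fold change 2.21 ± 0.47 SE, adjusted p = 0.0132) and in TCF-1 cKO cells (log2 fold change 2.41 ± 0.52 SE, adjusted p = 0.00800), and at day 7 the genotypes overlapped through TCF-1 cKO replicate 2 (-1.12, adjusted p = 0.209). Ifi27l2a was at 163, 188 and 198 normalized CPM in WT and 78.1, 99.1 and 338 in TCF-1 cKO libraries pre-transplant, and at 494, 698 and 1081 in WT and 957, 779.7 and 793 in TCF-1 cKO libraries at day 7. It rose in both genotypes as well (log2 fold change 1.76 ± 0.45 SE, adjusted p = 0.0285 in WT and log2 fold change 2.30 ± 0.56 SE, adjusted p = 0.0136 in TCF-1 cKO), in TCF-1 cKO from libraries that spread widely pre-transplant. The day 7 groups of this most abundant member overlapped (-0.05, adjusted p = 0.936).

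Parp14, a mono-ADP-ribosyltransferase, was at 84.1, 32.4 and 76.1 normalized CPM in WT and 23.7, 27.2 and 24.2 in TCF-1 cKO libraries pre-transplant, and at 28.1, 14.3 and 19.2 in WT and 20.2, 19.5 and 23.1 in TCF-1 cKO libraries at day 7. It fell in WT (log2 fold change -1.86 ± 0.60 SE, adjusted p = 0.0679) and did not change detectably in TCF-1 cKO cells (-0.27, adjusted p = 0.622), where pre-transplant libraries were already below those of WT (-1.11, adjusted p = 0.264). The WT call was lost under the offset and in 5 of 6 fits that left out a library. Cxcl10, the chemokine ligand of CXCR3, was at 2.20, 1.76 and 1.98 normalized CPM in WT and 4.84, 3.96 and 3.94 in TCF-1 cKO libraries pre-transplant, and at 3.03, 0.0780 and 1.45 in WT and 0, 0 and 1.61 in TCF-1 cKO libraries at day 7. It was at 0 in 2 TCF-1 cKO libraries and at 1 count in WT replicate 2 of day 7, and no comparison passed (-1.79, adjusted p = 0.517 between the genotypes at day 7), although under the offset it was called lower over time in TCF-1 cKO cells (-3.32, adjusted p = 0.0981). Ifi44 passed in no comparison, at 2.05 to 3.37 in WT and 3.61 to 14.1 in TCF-1 cKO libraries of day 7, which did not overlap.

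The ligands, receptors and signalling genes upstream of the members were read as a list of 19, of which 17 passed the filter on low counts. Ifng, the gene of interferon-γ, was at 3.00, 0.737 and 4.94 normalized CPM in WT and 2.55, 2.22 and 0.407 in TCF-1 cKO libraries pre-transplant, and at 34.3, 27.9 and 75.3 in WT and 107, 203 and 191 in TCF-1 cKO libraries at day 7. All TCF-1 cKO libraries of day 7 were above all WT libraries, and Ifng was higher in TCF-1 cKO (log2 fold change 1.70 ± 0.52 SE, adjusted p = 0.0773) and rose in both genotypes (log2 fold change 3.70 ± 0.82 SE, adjusted p = 0.0156 in WT and log2 fold change 6.60 ± 0.73 SE, adjusted p = 0.000244 in TCF-1 cKO). The type I genes Ifnb1 and Ifna4 did not pass the filter. Ifnb1 held 13, 8 and 30 counts in the TCF-1 cKO and 0, 0 and 5 in the WT libraries of day 7, which did not overlap, and 0 or 1 pre-transplant. Ifna4 held 8 counts in the library labelled WT replicate 3 at day 7 and 0 or 1 in every other library. At day 7, 8 of the 17 were lower in TCF-1 cKO and 1, Ifng, was higher, beside 15.4% and 2.51% of all genes. The lower genes were the feedback inhibitors Socs1 (-3.77, adjusted p = 0.0448) and Socs3 (-2.78, adjusted p = 0.0520), the factors Irf3 (-2.67, adjusted p = 0.0448) and Irf8 (-2.94, adjusted p = 0.0474), the adaptors Mavs and Tmem173, the kinase Tyk2 and the phosphatase Ptpn6. These lower calls were all lost when any 1 day 7 library other than that labelled WT replicate 3 was left out, in fits that called 0 of all genes lower. The same fits called 0 to 2 of all genes higher. Without WT replicate 1 of day 7 it was 0, so that the higher call of Ifng was lost there at least.

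Under the GC content and length offset none of the 17 was called by edgeR at day 7, with 10 at an unadjusted p under 0.05, beside 3571 of 16026 genes. Over time, TCF-1 cKO cells had 3 of the 17 higher (Ifng, Ifngr1 and Ptpn2) and 5 lower (Ifngr2, Ifnar2, Irf8, Mavs and Ptpn6), beside 19.7% and 16.8% of genes. WT cells had 1 higher (Ifng) and 2 lower (Ifngr2, -5.30, adjusted p = 0.00176, and Ifnar2, -2.34, adjusted p = 0.0277), beside 9.7% and 10.3%. Ifnar1, Jak1, Jak2 and Irf2 passed in none of these comparisons. Pre-transplant 0 passed by edgeR, and 5 had an unadjusted p under 0.05, beside 3322 of 18757 genes. All 17 were below 0, with a median of -0.76 beside 0.05 for all genes.

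A list of 46 further interferon-induced genes that are not members was counted in the same way. Pre-transplant 0 passed by edgeR, with 6 at an unadjusted p under 0.05, beside 3322 of 18757 genes. At day 7, 1 of 45 tested was higher in TCF-1 cKO (Gbp11, 4.10, adjusted p = 0.0488) and 6 were lower, among them Lgals3bp (-4.25, adjusted p = 0.0448) and Lgals9 (-2.47, adjusted p = 0.0448), so that the lower genes were near the 15.4% of all genes. Gbp11 held 33, 55 and 65 counts in the TCF-1 cKO and 3, 0 and 5 in the WT libraries of day 7. Its fold change thus rests on WT levels at or near the limit of 3 counts. Once the offset was applied, Gbp11 was no longer called, and 2 of the 45 genes were lower. The fit without WT replicate 1 of day 7 called 0 of all genes higher, so Gbp11 was lost there at least. The lower calls were lost when any 1 day 7 library other than that labelled WT replicate 3 was left out. From pre-transplant to day 7, 3 rose and 9 fell in WT cells, beside 9.7% and 10.3% of genes, and 15 rose and 12 fell in TCF-1 cKO cells, beside 19.7% and 16.8%. Those that rose in TCF-1 cKO included the IRG-related GTPase genes Ifi47 (2.15, adjusted p = 0.00219) and Gm12250 (2.62, adjusted p = 0.00413) and the guanylate-binding gene Gbp8 (1.72, adjusted p = 0.0357), and those that fell included Helz2 (-2.75, adjusted p = 0.00898) and Znfx1 (-2.65, adjusted p = 0.0106). The guanylate-binding gene Gbp9 stood lower at day 7 in TCF-1 cKO libraries, at 17.9 to 22.5 normalized CPM against 32.3 to 44.2 pre-transplant. Gm4841 was lower without overlap as well, at 8.79 to 11.1 against 18.2 to 29.4. For Gbp10, Gbp11 and F830016B08Rik the TCF-1 cKO libraries of the stages overlapped. Two-sided exact permutation tests of 3 libraries against 3 cannot go below 0.1, which every member without overlap reached.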

How the data were processed

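Samples were grouped by their titles, and the members, gene lists, roles and the rule for genes given library by library were chosen with earlier results of these data known. Per the submitters' processing notes, the authors used Kallisto 0.46.2, limma and the build mm9. The transcript release is not given in the sources used here. RNA was reverse transcribed with SMART-Seq HT and made into Nextera XT libraries, which mark neither strand nor single molecules. The deposited estimated counts were made by the authors with Kallisto for each transcript, and are not scaled for depth or length. The deposited TPM values (transcripts per 1000000) are the authors' abundances after scaling for effective length and depth, and deposited lengths in bases were used for one alternative only.

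Of 117497 transcripts, 116374 were joined to a gene by identifier without version in the GENCODE M21 annotation of GRCm38. Estimated counts were summed per gene and rounded. Each comparison was tested across all genes with edgeR 4.0.16 (filterByExpr, trimmed mean of M values, quasi-likelihood test, Benjamini-Hochberg adjustment, FDR 0.1), where the study used limma. The SE of a log2 fold change was derived from its F statistic. The interaction used all 12 libraries. All 46 members are accounted for. One gene was left out of the upstream list and its counts and is not reported here. Values in every library are given for 18 members and for up to 4 further members of each class and direction with the smallest p per comparison. A member is said to rise, fall or be called only where it passed the FDR. Shared sequence was counted in 31-base words. GC content and length came from annotated transcripts, and the offset subtracted each library's loess trend (span 0.4, degree 2). The scripts were tested on simulated data.

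The alternatives were limma-voom (limma 3.58.1), DESeq2 1.42.0 as a Wald test and as size factors, library totals, no filter, a filter of 1 CPM in at least 3 libraries, TPM-scaled counts, an FDR of 0.05, a replicate block, the offset, both together, 1 fit over 12 libraries, and leaving out each library. The software was SciPy 1.17.1 and pandas 2.3.3 in Python 3.11.15, with R 4.3.3. Library totals were 4520270 to 32657005, and the limit of 3 counts covers counting error only. No 2 libraries of a group were alike within sampling noise, so that the spread between libraries exceeded counting error.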

Additional observations from a re-analysis of the deposited data

How the results depend on the processing

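At day 7 the 3 higher and 7 lower members between the genotypes became 5 higher under a filter of CPM above 1, 8 higher with DESeq2, 1 lower at an FDR of 0.05, 2 lower with library totals and 4 lower with limma-voom. The GC content and length offset left 1 higher and 1 lower. The replicate numbers did not pair the libraries (correlations of deviations from -0.11 to 0.12), although between the genotypes at day 7 each library correlated best with its own number. With a replicate block 4 were higher and 4 lower, and with block and offset together 0 and 0. Leaving out 1 library gave 0 to 6 higher and 0 to 9 lower. In WT over time, the 4 higher and 7 lower members became 1 and 17 with library totals and 11 lower with DESeq2, and leaving out 1 library gave 2 to 6 higher (2 without any one WT library pre-transplant) and 4 to 8 lower (4 without WT replicate 3 pre-transplant or replicate 1 of day 7). In TCF-1 cKO over time, library totals gave 4 higher and 23 lower. Among the called members they turned Rtp4 to -0.37, Gbp4 to -0.01 (-0.00616), Irgm1 to -0.70 and Tgtp1 to -0.51. The other alternatives kept both TCF-1 cKO counts within 1.5 times, single libraries giving 15 to 20 higher and 5 to 10 lower. For the interaction, 2 were higher and 1 lower with no filter, 9 and 1 with DESeq2, and 0 to 10 and 0 to 2 without 1 library. Pre-transplant, leaving out 1 library gave 0 to 4 lower. The cause of these changes was not tested. The block changed no other count by more than 1.5 times. With 3 counts at 0.0804 to 0.290 normalized CPM, levels below these, as of Cxcl10 at day 7, were not resolved.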
